A study of Mus musculus with 6 samples.

Results

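The transcription factors Tcf7, Lef1, Bach2, Myb, Myc, Id3, Klf2 and Satb1, all linked to early or long-lived lymphocytes, were followed in resting splenic natural killer (NK) cells with and without Runx3. Every probe set to which the array's annotation gave one of these names as its only gene symbol was taken, which yielded 16 of 45101 probe sets for 7 of the 8 factors, out of 18193 genes named in all. No probe set carried Tcf7 as its only symbol, and Tcf7 was not analysed here. The arrays came from 3 Runx3-/- and 3 wild-type (WT) samples, which the paper calls biological repeats, from mice of the ICR strain, 6 weeks old. The label for sex read male and female throughout, so it does not tell the sex of a sample or whether a sample pooled mice. Spleen cells were enriched for NK cells by negative selection, sorted as DX5+ (CD49b, which NK cells share with some other blood cells) and used without stimulation. The sources used here do not say which part of Runx3 these mice lack. The question was whether the levels of these factors in resting NK cells differ when Runx3 is absent.

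TCF-1 (encoded by Tcf7) and LEF-1 are related DNA-binding partners of β-catenin in the Wnt pathway and are required early in NK and T cell development. Bach2, Myb, Id3, Klf2 and Satb1 are associated with immature, resting or memory-forming lymphocytes, whereas Myc drives ribosome production and growth when lymphocytes are activated. Runx3 is a RUNX family transcription factor that cytotoxic lymphocytes express strongly.

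On the brighter of its probe sets, Runx3 had log2 signals of 7.76, 8.51 and 8.68 in Runx3-/- replicates 1 to 3 and of 10.11, 11.56 and 10.73 in WT replicates 1 to 3, a log2 change of -2.48 (limma adjusted p = 0.0565). The mean log2 signal of 15 NK cell markers lay between 12.84 and 13.31 on all arrays. Of these markers, Eomes, a T-box factor of NK cell maturation, met the study's thresholds and was lower in Runx3-/- (log2 change -0.70). Markers of other cells differed between the groups. The mean of 12 basophil and mast cell markers was 11.08, 10.06 and 10.07 in Runx3-/- and 9.04, 8.64 and 9.14 in WT, and 9 of them met the study's thresholds, all higher in Runx3-/-. The mean of 13 B cell markers was 8.04, 7.60 and 7.28 in Runx3-/- and 7.35, 6.38 and 6.31 in WT, with 5 higher at those thresholds (3 to 7 over all settings). Of the 13, 12 had a positive change and 1 a negative one. Pax5, a defining B cell factor, was under log2 5 on every array, but Cd79b (7.85 to 10.23) and Ighm (10.97 to 12.40) were above it on all. The mean of 11 T cell markers was 9.57, 9.16 and 9.19 against 9.04, 9.55 and 9.80, with none at the thresholds (2 lower without WT replicate 1). Cd4, Cd8a and Cd8b1 were under log2 5 on every array, but Cd3d (7.70 to 9.57) and Cd3g (8.26 to 9.36) were above it on all. At the same thresholds, 2 of 12 macrophage and monocyte markers were higher and none lower. Their mean was 9.22, 7.45 and 4.95 in Runx3-/- and 6.61, 6.31 and 6.20 in WT, and the count was 9 higher without Runx3-/- replicate 3, but 1 higher and 1 lower without Runx3-/- replicate 1. Of other cells, 1 of 6 dendritic cell markers was higher and 1 lower. Of 10 markers of innate lymphoid and immature NK cells, 2 were higher and 1 lower. Of 8 markers of stem and progenitor cells, 1 was higher and 1 lower, with a median change of -0.53. The higher one, Gata2, was counted with the basophils and mast cells too. The mean of the 8 was 6.87, 6.27 and 6.72 in Runx3-/- and 6.38, 6.88 and 8.13 in WT, highest on WT replicate 3. Cd34 (6.56) and Procr (6.10) were above log2 5 on that array only. On their brightest probe sets, Lef1, Bach2, Myc, Id3 and Klf2 were also highest there, and Myb and Satb1 were not. Cells of other types express several of the factors described here, and their part in the values below was not tested. In such bulk samples, fewer cells of a type cannot be told apart from less RNA per cell.

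Of the 7 factors measured, 6 were detected on every array of both genotypes and Id3 on 3 of 6, and none differed between the genotypes at a false discovery rate of 5%. Of the 16 probe sets, 13 had a log2 signal of at least 5, the level taken as the limit of detection, on every array. Signals are on a log2 scale, on which a difference of 1 is a doubling, and changes are Runx3-/- minus WT throughout. For each gene the probe set of highest mean signal was used, and 9545 genes were tested. At an adjusted p under 0.05, 0 of the 7 factors were called by limma, against a background of 0.608% of tested genes. The study's thresholds were a change of 1.5-fold or more together with an unadjusted p below 0.05. By these, 0 of 7 were called as well, where 13.8% of all genes were, 4.89% higher and 8.86% lower in Runx3-/-. No factor reached an unadjusted p under 0.05. Myc was the only factor of the 7 whose groups did not overlap, against 22.8% of all tested genes. The changes of all 7 were below 0, between -0.68 for Myc and -0.00 for Klf2, while the median over all tested genes was -0.13 and 5937 of 9545 genes had a negative change.

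**Figure D1:**
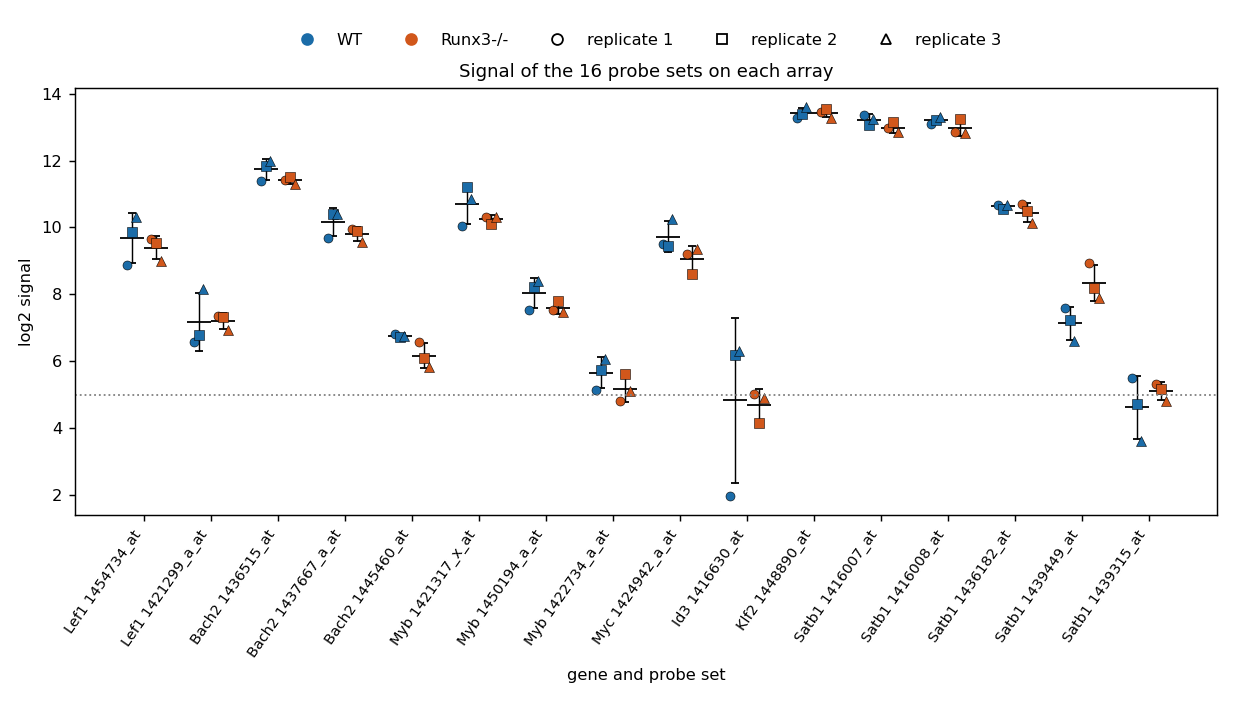
Log2 signal (vertical axis) of each of the 16 probe sets (horizontal axis) on each array, blue for WT and orange for Runx3-/-, with the symbol giving the replicate. Horizontal bars are group means with SD (n = 3), and the dotted line marks log2 5. WT replicate 1 lies below the other WT arrays for 10 of the 16 probe sets, with Id3 at 1.99, under the dotted line, and Satb1 1439449_at is the probe set on which all Runx3-/- arrays lie above all WT arrays.

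Counted by probe set, the picture was similar. Over 16521 tested probe sets, 0 of the 16 were called at an adjusted p under 0.05 (0.0847% of all) and 2 of 16 at the study's thresholds (12.9% of all). These were a dim probe set of Bach2, lower in Runx3-/-, and a probe set of Satb1 that was higher. The groups did not overlap for 3 of 16 probe sets, the same pair and that of Myc, against 21.3% of all tested probe sets. The SD was larger in WT than in Runx3-/- for 12 of the 16, and the share of all probe sets for which this held was not determined.

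Lef1, which binds β-catenin and activates or represses Wnt target genes, was detected on both of its probe sets. On 1454734_at, the brighter, the log2 signals were 9.67, 9.53 and 9.01 in Runx3-/- and 8.87, 9.87 and 10.32 in WT. The Runx3-/- arrays fell inside the range of the WT arrays, with WT replicate 1 below them all and WT replicates 2 and 3 above. The change was -0.29 ± 0.39 (SE; 95% interval -1.19 to 0.62; limma adjusted p = 0.742). The other probe set, 1421299_a_at, gave 7.34, 7.33 and 6.94 in Runx3-/- and 6.58, 6.79 and 8.17 in WT, a change of 0.03. There WT replicate 3 stood above the other arrays, and the groups overlapped.

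The interval for Lef1 leaves room for a fall of over 2-fold. Among 18 tested genes of the Wnt arm around Lef1 and Tcf7 (β-catenin, its destruction complex, Groucho-type corepressors and others), none met the study's thresholds, and their median change was -0.02. Those with the smallest p were Tle4, a Groucho corepressor (-0.54, limma adjusted p = 0.253), and Axin2, a scaffold of the destruction complex and a classical Wnt target (-0.67, adjusted p = 0.401). Axin2 had 7.90, 7.75 and 7.49 in Runx3-/- and 7.55, 8.72 and 8.88 in WT, with WT replicate 1 among the Runx3-/- arrays. Of 3 probe sets of Tle4, 1 went the opposite way, and its unadjusted p was 0.0272 for a change of 1.45-fold. Without WT replicate 1, 3 of the 18 were lower at the thresholds, among them Axin2 (-1.09) and Tle4 (-0.59).

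Bach2, a repressor that restrains effector differentiation in lymphocytes, was read by 3 probe sets. The brightest, 1436515_at, gave 11.42, 11.51 and 11.30 in Runx3-/- and 11.38, 11.83 and 11.99 in WT, so that WT replicate 1 lay between Runx3-/- arrays. The change was -0.32 ± 0.23 (SE; 95% interval -0.85 to 0.20; limma adjusted p = 0.505). On 1437667_a_at the signals were 9.97, 9.90 and 9.57 against 9.68, 10.41 and 10.39, a change of -0.35, again with WT replicate 1 between Runx3-/- arrays. The dim 1445460_at had 6.57, 6.12 and 5.83 in Runx3-/- and 6.81, 6.73 and 6.76 in WT.

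On 1445460_at the groups did not overlap and the WT arrays were nearly equal. Its change of -0.60 ± 0.24 (SE) was a 1.51-fold difference with an unadjusted p of 0.0418 and a limma adjusted p of 0.330, just inside the study's thresholds. It met them in 8 of 17 fits, the reported one included, with changes of -0.80 to -0.60, and missed them in the other 9, among them those on leaving out any single array other than Runx3-/- replicate 1 (-0.61 to -0.42). All 3 probe sets had lower means in Runx3-/-. Among 10 tested partners and targets of Bach2, 1 met the study's thresholds. This was Mafg, a small Maf protein with which Bach factors pair on DNA, at 8.43, 7.78 and 7.81 in Runx3-/- and 6.78, 6.85 and 7.41 in WT. Mafg was higher on every Runx3-/- array than on any WT array (log2 change 0.99, 1.99-fold, limma adjusted p = 0.168) and met the thresholds in 19 of 19 fits. The median change of the 10 was 0.15.

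Myb, a factor of progenitor cells and early lymphocytes, was read by 3 probe sets with almost equal changes. The brightest, 1421317_x_at, had 10.32, 10.10 and 10.32 in Runx3-/- and 10.04, 11.20 and 10.84 in WT. WT replicate 1 was the lowest of the 6 arrays and the other WT arrays were the highest. The change was -0.45 ± 0.31 (SE; 95% interval -1.17 to 0.28; limma adjusted p = 0.505). The ending of this probe set's name marks oligonucleotides that can match other transcripts, so the other probe sets matter here.

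On 1450194_a_at, Myb had 7.52, 7.82 and 7.47 in Runx3-/- and 7.54, 8.22 and 8.40 in WT, a change of -0.45. On 1422734_a_at it had 4.81, 5.63 and 5.11 against 5.16, 5.75 and 6.07, a change of -0.47. Groups overlapped on all 3 probe sets, and WT replicate 1 was the lowest WT array on each. Of 10 tested relatives and partners of Myb, 1 met the study's thresholds, with a median change of 0.02. Mybl2, which serves cell cycle genes in dividing cells, was dim, at 6.12, 4.53 and 5.35 in Runx3-/- and 3.77, 4.73 and 3.72 in WT. Its change was 1.26 (limma adjusted p = 0.239), and 0.49, 1.40-fold, with values under log2 5 raised to 5 (limma adjusted p = 0.443). Its groups overlapped, and it met the thresholds in 11 of 18 fits, but not without WT replicate 1 or 3 or Runx3-/- replicate 1 or 3 (0.87 to 1.26), nor with values under log2 5 raised to 5 (0.49).

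Myc, the growth-promoting factor, gave the lowest p of the 7. Its single probe set, 1424942_a_at, had 9.20, 8.60 and 9.35 in Runx3-/- and 9.51, 9.44 and 10.25 in WT. All Runx3-/- arrays lay below all WT arrays, by a narrow margin between Runx3-/- replicate 3 and WT replicate 2. The change was -0.68 ± 0.31 (SE), a 1.60-fold difference, with a 95% interval of -1.40 to 0.04, an unadjusted p of 0.0607 and a limma adjusted p of 0.330. It was past the fold of the study's thresholds but not their p. Leaving out 1 array at a time kept the change below 0, between -0.83 and -0.42.

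Of 13 tested genes of the Myc network, 2 were higher and 1 was lower at the study's thresholds, with a median change of 0.02. Max, the partner that Myc needs to bind DNA, had 7.74, 7.92 and 7.04 in Runx3-/- and 6.44, 6.82 and 6.96 in WT (0.83, limma adjusted p = 0.229). Mxd3, which competes with Myc for Max, had 8.37, 7.81 and 8.57 against 7.23, 7.77 and 6.99 (0.92, adjusted p = 0.212). Both were higher on every Runx3-/- array than on any WT array. Mycn, a close relative of Myc, had 3.49, 3.70 and 5.68 in Runx3-/- and 5.25, 6.16 and 7.70 in WT, with Runx3-/- replicate 3 above WT replicate 1. Its change was -2.08 (limma adjusted p = 0.246). With values under log2 5 raised to 5 it was at least 2.21-fold lower in Runx3-/- (limma adjusted p = 0.380). The thresholds were met in 16 of 19 fits by Max, in 17 of 19 by Mxd3 and in 13 of 18 by Mycn. They were missed by Max without WT replicate 1 (0.68) or Runx3-/- replicate 1 or 2 (0.74 and 0.66), by Mxd3 without replicate 3 of either group (0.74 for WT and 0.75 for Runx3-/-), and by Mycn without WT replicate 3 (-1.42) or Runx3-/- replicate 1 or 2 (-1.68 and -1.79). Mycn also missed them with no filter and with values under log2 5 raised to 5 (-1.14), the setting behind its bound of 2.21-fold.

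Genes that Myc is known to drive lay mostly below 0, as most tested genes did. Of 25 tested targets, largely ribosome and nucleolar genes, 19 had a negative change, beside 5937 of all 9545 genes, and the median was -0.28, beside -0.13 for all genes. At the study's thresholds, 4 were lower and 0 higher, where 8.86% of all genes were lower and 4.89% higher. The 4 were Nop56 (-0.70), a component of box C/D small nucleolar ribonucleoproteins, Fbl (-0.59), their methyltransferase fibrillarin, Ppan (-0.79), which serves maturation of the large ribosomal subunit, and Hspd1 (-0.72), the mitochondrial chaperonin HSP60. Their limma adjusted p ran from 0.169 to 0.308. Nop56, with 9.97, 10.01 and 10.04 in Runx3-/- and 10.70, 10.91 and 10.50 in WT, did not overlap between the groups, nor did Ppan or Hspd1. Ppan met the thresholds in 19 of 19 fits, Nop56 in 18, Hspd1 in 18 (missed without WT replicate 1, at -0.57) and Fbl in 10. Ncl and Npm1, abundant nucleolar proteins, gave changes of 0.28 and 0.03. Over the other settings tried, between 2 and 7 of the 25 were lower and at most 1 was higher, with medians between -0.40 and -0.20.

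**Figure D2:**
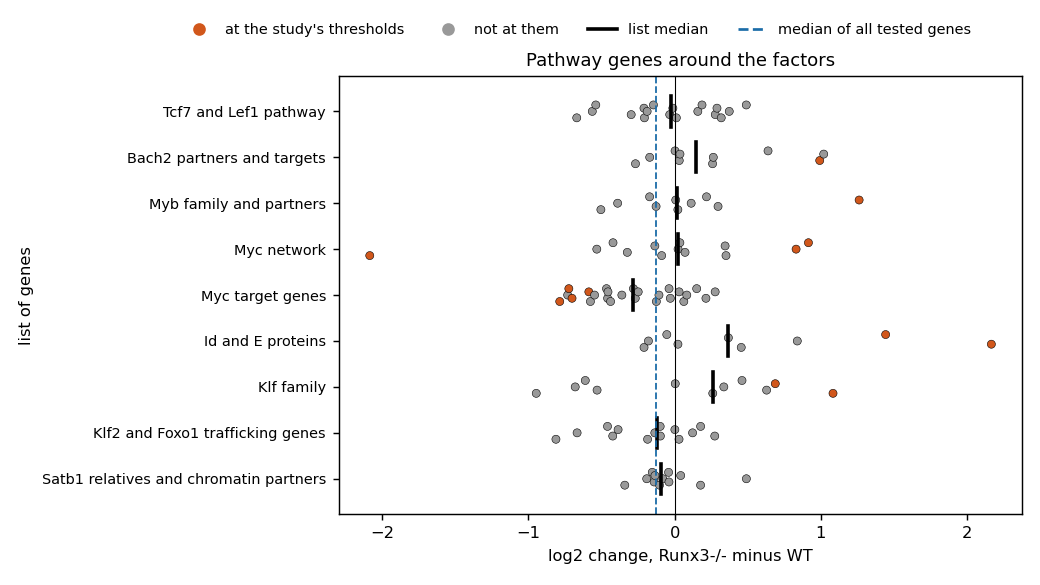
Log2 change, Runx3-/- minus WT (horizontal axis), of every tested gene in 9 lists of genes around the factors (vertical axis), orange where the study's thresholds were met. Black bars are list medians and the dashed line is the median of all tested genes, -0.13. Myc target genes lie furthest to the left (median -0.28), and Id and E proteins furthest to the right (0.37).

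Id3, an inhibitor that binds E proteins and keeps them off DNA, was near the limit of detection. Its single probe set, 1416630_at, had 5.03, 4.17 and 4.90 in Runx3-/- and 1.99, 6.20 and 6.31 in WT. WT replicate 1 was below all other arrays, and WT replicates 2 and 3 were above all. WT replicate 1 and 2 of the Runx3-/- arrays were under log2 5, where the size of a difference depends on the background model. The change was -0.13 ± 1.07 (SE), with a 95% interval of -2.62 to 2.35 (limma adjusted p = 0.965), so that neither a large rise nor a large fall could be told from no change. With values under log2 5 raised to 5 it was -0.83 (unadjusted p = 0.0504, limma adjusted p = 0.313). Of 9 other tested members of the Id and E protein group, 2 met the study's thresholds, both higher in Runx3-/-, with a median of 0.37.

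Id1, a relative of Id3, had 7.70, 6.52 and 5.21 in Runx3-/- and 3.69, 3.73 and 5.52 in WT, a change of 2.17 (limma adjusted p = 0.216). With values under log2 5 raised to 5 it was at least 2.47-fold higher in Runx3-/- (limma adjusted p = 0.327). Tal1, a partner of E proteins in progenitor, erythroid and mast cells, had 8.38, 7.57 and 7.30 against 5.23, 6.11 and 7.58, a 2.72-fold difference (adjusted p = 0.292). In both genes WT replicate 3 overlapped the Runx3-/- arrays. Both were highest on Runx3-/- replicate 1, the array with the highest mean of basophil and mast cell markers (11.08), of B cell markers (8.04) and of macrophage markers (9.22). Without that array none of the 9 met the thresholds (1.55 for Id1, 1.13 for Tal1), nor without WT replicate 1 (1.85 and 0.91) or without WT replicate 2 (1.87 and 1.34). With values under log2 5 raised to 5, Id1 missed them as well (1.30).

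Klf2, which maintains quiescence and drives exit and homing genes such as S1pr1, was the most even of the factors. Its single probe set, 1448890_at, had 13.44, 13.53 and 13.28 in Runx3-/- and 13.28, 13.39 and 13.59 in WT. The arrays of the 2 groups were interleaved within 0.31 log2 units. The change was -0.00 ± 0.20 (SE), and its 95% interval of -0.46 to 0.45 does not reach a 1.5-fold change in either direction (limma adjusted p = 0.997). The sign of so small a value had no stability: it was 0.034 with each array centred on its median and 0.044 with quantile normalization.

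Of 14 tested genes of the Klf2 and Foxo1 trafficking programme, none met the study's thresholds, with a median of -0.12. Without WT replicate 1, 3 of the 14 were lower (median -0.22), among them S1pr1 (-0.89) and Ccr7 (-1.28). S1pr1, a receptor for lymphocyte exit, had 6.71, 7.30 and 7.41 in Runx3-/- and 7.36, 7.56 and 8.49 in WT (-0.67, limma adjusted p = 0.386). Ccr7, a lymph node homing receptor, had 5.39, 5.31 and 5.68 against 5.34, 6.36 and 7.10 (-0.81, adjusted p = 0.384). In both the groups overlapped through WT replicate 1. Of 11 other tested Klf genes, 2 were higher at the thresholds, with a median of 0.26. Klf6 had 11.14, 11.84 and 10.81 against 10.57, 10.43 and 10.72 (0.69), with 1 of its 5 probe sets going the other way, and Klf5 had 9.07, 7.68 and 7.41 against 6.71, 6.71 and 7.50 (1.08). Without WT replicate 1, without WT replicate 2 or without Runx3-/- replicate 1 or 2, neither met the thresholds, and with WT replicate 3 left out Klf5 did (1.35). Other Klf genes were lower at the thresholds in some of these fits. There were 2 without WT replicate 1, 1 without Runx3-/- replicate 1 and 1 without Runx3-/- replicate 2, with 0 higher in each.

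Satb1, a chromatin organizer of thymocytes and mature T cells, was the factor whose probe sets went different ways. The brightest, 1416007_at, had 12.97, 13.14 and 12.84 in Runx3-/- and 13.37, 13.06 and 13.24 in WT, a change of -0.24 ± 0.20 (SE; 95% interval -0.70 to 0.22; limma adjusted p = 0.575). The groups overlapped through Runx3-/- replicate 2. On 1416008_at the change was -0.23 and on 1436182_at -0.19, with all signals above log2 10 on both. For these 3 bright probe sets the groups overlapped.

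On 1439449_at, Satb1 had 8.94, 8.19 and 7.89 in Runx3-/- and 7.58, 7.24 and 6.61 in WT. All Runx3-/- arrays lay above all WT arrays. The change was 1.20 ± 0.36 (SE), 2.30-fold, with a 95% interval of 0.36 to 2.05, an unadjusted p of 0.0118 and a limma adjusted p of 0.228 over all probe sets. It met the study's thresholds in 17 of 17 fits, with changes between 0.90 and 1.43.

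The fifth probe set, 1439315_at, was at the limit of detection, with 5.32, 5.19 and 4.82 against 5.50, 4.74 and 3.63 and a change of 0.49. The signal of 1439449_at minus that of 1416007_at on the same array was -4.03, -4.95 and -4.95 in Runx3-/- and -5.78, -5.83 and -6.63 in WT. The difference between these probe sets was thus 1.44 log2 units smaller in Runx3-/- on average and did not overlap between the groups (exact permutation test, two-sided p = 0.1, the smallest that 3 against 3 allows). Such a ratio shows unequal change of the probe sets and not which of them followed the gene. The same test was run for every dimmer probe set of the factors against the brightest of its gene. All other pairs gave an exact p of 0.3 or more, and no correction was made for the number of pairs. The transcripts that each probe set reads were not analysed here. When all 5 were averaged, Satb1 came to 0.21, the opposite sign of its brightest probe set. None of 12 tested relatives and chromatin partners of Satb1 met the study's thresholds (median -0.09), with the smallest p for the chromatin remodellers Smarca5 (0.49, limma adjusted p = 0.477) and Smarca4 (-0.34, adjusted p = 0.494).

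**Figure D3:**
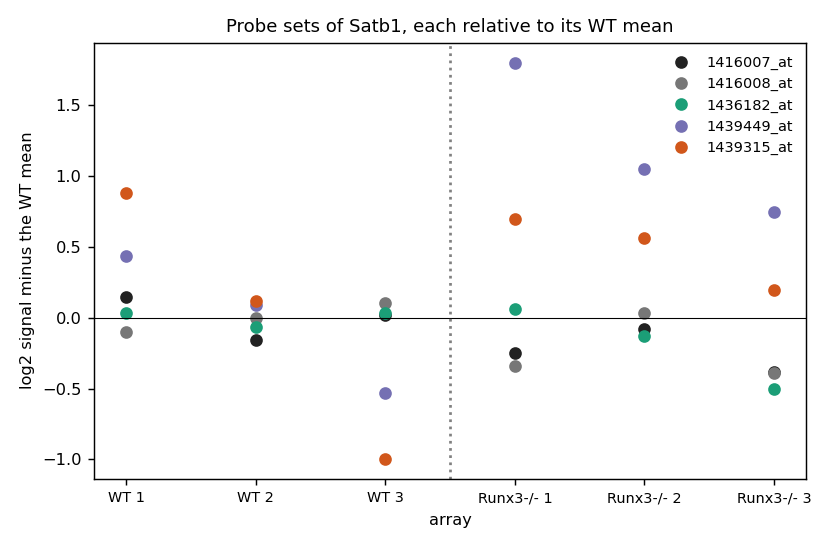
Log2 signal of the 5 probe sets of Satb1 on each array (horizontal axis), with the mean of the 3 WT arrays of that probe set subtracted (vertical axis). The 3 bright probe sets lie near or below 0 in Runx3-/-, whereas 1439449_at lies above all WT arrays on every Runx3-/- array, with a mean change of 1.20.

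Leaving out WT replicate 1 moved 3 of the 7 factors past the study's thresholds. It had lower signals than both other WT arrays on 10 of the 16 probe sets, including those of Id3 (1.99 against a mean of 6.26), both of Lef1, all of Myb and the brighter pair of Bach2. The others were Klf2 (13.28 against 13.39 and 13.59) and Satb1 1416008_at. Probe sets of the same gene are not separate observations, and the share of all probe sets with this order was not determined. In the whole data set it was also the WT array nearest to Runx3-/- on the main axis of variation (2.35, against 32.95 and 44.49 for WT replicates 2 and 3 and -32.48 to -15.27 for Runx3-/-). The 3 of 7 that met the thresholds without it, against 19.8% of all genes, were all lower in Runx3-/-. Lef1 had a change of -0.69 (limma adjusted p = 0.233), Myb of -0.77 (adjusted p = 0.137) and Id3 of -1.56 (adjusted p = 0.0730), at least 2.37-fold with values under log2 5 raised to 5. None passed an adjusted p of 0.05 in that fit either.

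By probe set, 6 of 16 met the thresholds without WT replicate 1, against 18.8% of all. These were Bach2 1437667_a_at, Myb 1421317_x_at and 1450194_a_at and Id3 1416630_at, all lower, and Satb1 1439449_at and 1439315_at, both higher. For 1439315_at this rested on WT signals under log2 5, and with such values raised to 5 its difference was 1.13-fold, short of the threshold. All Runx3-/- arrays were below both WT replicates 2 and 3 for Lef1, Bach2, Myb, Myc and Id3, 5 of 7 factors, where the same held for 29.8% of all tested genes. This count was made after the values of WT replicate 1 had been seen. The mean of the T cell markers was also lowest on WT replicate 1 (9.04) and highest on WT replicate 3 (9.80). Over WT replicates 1 to 3, the mean of stem and progenitor markers rose as well (6.38, 6.88 and 8.13). That of innate lymphoid and immature NK cell markers also rose (8.67, 8.75 and 9.14), while those of B cell and macrophage markers fell. The part of any of these cells in the order of the arrays was not tested. The values of the other arrays moved Lef1 as well: without WT replicate 3 its change was 0.032, and that of Id3 was 0.60.

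**Figure D4:**
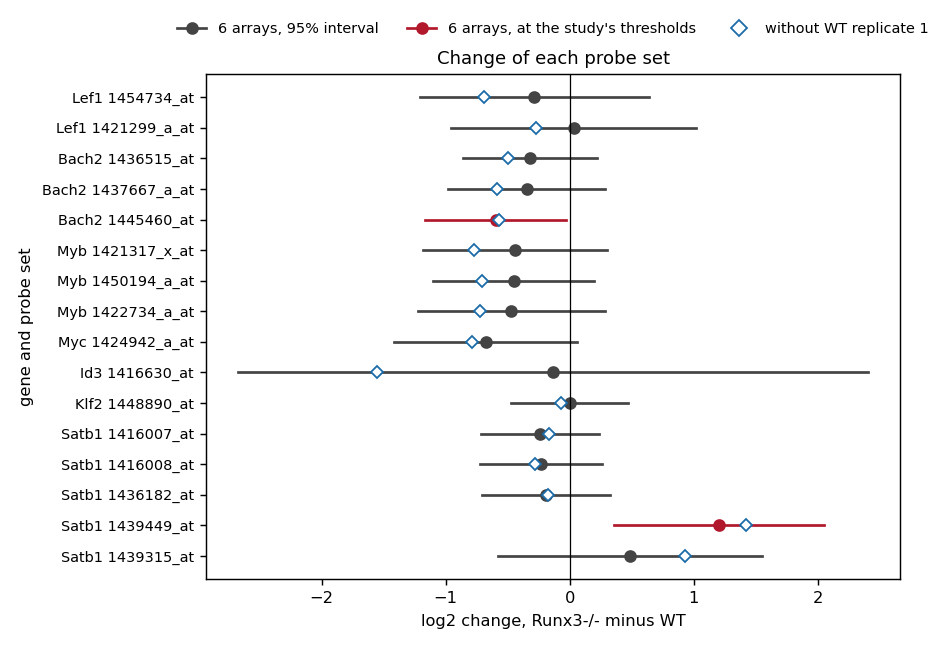
The 16 probe sets (vertical axis) by their log2 change, Runx3-/- minus WT (horizontal axis), with its 95% interval from limma on 6 arrays, red where the study's thresholds were met. Open diamonds give the change without WT replicate 1. For Id3 it moves from -0.13 to -1.56, and for Satb1 1439449_at from 1.20 to 1.42.

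The genes whose profile over the 6 arrays was closest to a factor were sought for those detected on every array and spanning at least 1 log2 unit, Lef1, Myb and Myc. The measure was the root-mean-square difference between log2 signals centred on their mean, over 8517 genes. Nearest to Lef1 were Ccar2 (0.12), Zfp608 (0.12) and Srd5a3 (0.17), where the median over all genes was 0.53. Nearest to Myb were Srm (0.08), the spermidine synthase, C1qbp (0.09), a mitochondrial matrix protein, and Tmem106c (0.09), against a median of 0.46. Nearest to Myc were Fam216a (0.08), Cryzl2 (0.11) and Adprhl2 (0.11), against a median of 0.50. Srm, which is also on the list of Myc targets, had 9.68, 9.23 and 9.68 in Runx3-/- and 9.31, 10.48 and 10.17 in WT. Like Myb, it was lower on WT replicate 1 than on the other WT arrays and highest on WT replicate 2. These likenesses describe 6 arrays, and those of Lef1 and Myb share whatever set WT replicate 1 apart. For Myc, WT replicate 1 (9.51) was not the lowest WT array, as WT replicate 2 had 9.44.

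The letters that RUNX factors bind were looked for in the promoters of the factors. Windows from 250 bases before to 50 bases after each start of transcription came from RefSeq (GRCm38.p6), with 15 windows for 7 of the factors, Tcf7 included, and none for Myc. The 4 motifs were searched on both strands, namely TGTGGT as well as TGTGGC, and, with a C at the third base, TGCGGT as well as TGCGGC, and none contains another. At least 1 of them was found in 3 of the 15 windows, and in 45.2% of 32851 windows of all genes. Tcf7 had a match in 1 of its 2 windows, while Lef1 (4 windows), Bach2, Id3 and Myb (1 each) had none. Klf2, the factor with the steadiest signal, had a pair of matches in its window, and Satb1, whose probe sets went different ways, had 1 in 1 of its 5 windows. They are shown for these contrasting factors 5′ to 3′ in the direction of the gene, with the matched letters in capitals. The first Klf2 stretch lies at chr8:72318897-72318926 and the second, which ends at the start of transcription, at chr8:72319042-72319061, both on the plus strand, and the Satb1 stretch at chr17:51826593-51826622 on the minus strand.
Klf2 promoter, 153 bases before the start: cccgcagtagccGCCACAgccaccaccgcc
Klf2 promoter, 8 bases before the start: tgggtgggccggGCCACAgc
Satb1 promoter, 22 bases before the start: tatgacctgattTGTGGCgcaccctcagat
Both Klf2 matches are TGTGGC read on the opposite strand. A match describes these letters only. Binding of Runx3 at these windows was not analysed here.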

How the data were processed

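RNA from 3 Runx3-/- and 3 WT samples of DX5+ splenic NK cells was hybridised to Affymetrix mouse arrays, which the paper calls A430.2, 1 per sample. The authors normalized the arrays by GC-RMA in Partek (the submitters' notes give no version) and deposited log2 values for 45101 probe sets. GC-RMA brings arrays close to a common distribution, so a change in total RNA per cell cannot be seen, and dim values depend on its background model. The medians of the deposited arrays over all probe sets still differed, from 3.42 (Runx3-/- replicate 2) to 3.52 (WT replicate 2). The platform annotation gave 1 gene symbol for 34945 probe sets, several for 932 and none for 9160, beside 64 controls. By identifier, 34741 of the named probe sets matched a RefSeq gene table.

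Groups and replicate numbers came from the sample titles. The genotypes were compared on the deposited values of all 6 arrays with limma 3.58.1 in R 4.3.3, without covariates, for genes (brightest probe set) and for probe sets at log2 5 or more on at least 1 array. P-values were adjusted by Benjamini-Hochberg over all features tested. The study names neither its test nor its background level, hence limma and log2 5. No gene list was tested. The fit was tested on simulated data. The factors, lists and rule for named genes (all factors, Runx3, in each list the genes meeting a threshold or else the 2 with the smallest p, and 3 nearest profiles) were chosen with earlier results of these data known. Of the marker genes so named, only Eomes and Gata2 are given. Ncl, Npm1, Cd79b, Ighm, Cd3d, Cd3g, Cd34 and Procr were added after their values were seen. Pax5, Cd4, Cd8a and Cd8b1 did not pass the filter for testing and are likewise named outside this rule. Alternatives covered filter, normalization, floor, moderation, array weights, choice of probe set, replicate block and leaving out each array. The number of arrays limits the precision.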

Additional observations from a re-analysis of the deposited data

How the results depend on the processing

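At an adjusted p under 0.05, 0 factors were called in any setting. At the study's thresholds the count of factors, 0 of 7, became 1 with trend and robust moderation (Myc), 1 with array weights (Myb), 1 with the replicate block (Myc) and 0 to 3 on leaving out 1 array. The count of their probe sets, 2, became 1 with median centring, 1 with trend, 1 with trend and robust moderation, where the Bach2 probe set was lost, and 1 to 6 on leaving out 1 array. Over all genes, 58 passed an adjusted p of 0.05, but 1 with no filter, 37 with dim values raised to log2 5, 203 with array weights, 12 with the mean of probe sets, and 0 to 128 on leaving out 1 array. Over probe sets, 14 passed, but 5 with no filter, 28 with trend, 37 with trend and robust moderation, 144 with array weights, and 3 to 115 on leaving out 1 array. In the 5 of those 6 leave-outs with 0 genes, between 1014 and 1561 genes had an unadjusted limma p under 0.05. The replicate numbers share no stated source. Deviations of same-numbered arrays correlated at 0.07, -0.19 and 0.15, so they were not taken as pairs, and the replicate block gave 0 genes and 3 probe sets at an adjusted p under 0.05. Directions turned for Klf2, Lef1, Id3 and Satb1. Klf2 turned to 0.034 with median centring and 0.044 with quantile normalization, and Satb1 to 0.21 with the mean of probe sets. On leaving out 1 array, Klf2 ranged from -0.071 to 0.081, Lef1 from -0.69 to 0.032 (0.53 at most and -0.27 at least on 1421299_a_at), Id3 from -1.56 to 0.60 and Satb1 1439315_at from -0.013 to 0.92. The negative ends for Lef1 and Id3 came without WT replicate 1 and the positive ends without WT replicate 3, and Id3 was also above 0 without WT replicate 2 (0.55) and without Runx3-/- replicate 2 (0.13). The cause was not tested. Id3 and Satb1 1439315_at are the most limited by signal, with 3 of 6 arrays under log2 5 for each.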
